A study of Mus musculus with 25 samples.

Results

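The comparison described here is between colon RNA of NEMOIEC-KO Il12a-/- mice and of Nemofl/fl mice, that is, between mice that carry both an epithelial NEMO deletion and a p35 label and mice that carry neither. It rests on 10 of the 25 libraries of the series, 5 of each genotype, chosen by their genotype labels alone and not by any measured value. The other 15 libraries (NEMOIEC-KO, NEMOIEC-KO Il12b-/- and NEMOIEC-KO Il23a-/-, 5 each) entered the same statistical model and are quoted where they show where the Il12a-labelled libraries stood. All mice were C57BL/6 and 6 weeks old, all tissue was distal colon, and the mice were kept under specific pathogen-free conditions. The labels number 5 replicates per genotype without saying that each is a separate mouse, so p-values measure the spread between these libraries, which may be technical. Nemofl/fl mice, the controls, carry a floxed gene for NEMO, the allele from which the deletion is made. In NEMOIEC-KO mice the floxed gene is deleted in intestinal epithelial cells, and in the 3 double mutants this is joined by the label Il12b-/- (p40), Il12a-/- (p35) or Il23a-/- (p19). The labels name neither the recombinase nor the structure of the null alleles, and there was no Il12a-/- group with intact NEMO, so an effect of the Il12a allele by itself and an effect of NEMO loss that persists without p35 cannot be told apart. The RNA came from bulk tissue, in which fewer cells of a type and less RNA per cell cannot be told apart.

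NEMO, encoded by Ikbkg, is the regulatory subunit of the kinase complex that activates NF-κB, and in the gut epithelium it protects cells from death and keeps the barrier intact. IL-12 is a cytokine of myeloid cells made of p35 (Il12a) and p40 (Il12b). It drives T cells and natural killer cells through STAT4 to make interferon-γ, which in turn makes epithelial cells and macrophages express MHC class II, antigen-processing and GTPase genes. IL-23 shares p40 and pairs it with p19 (Il23a). The question of the comparison is what loss of epithelial NEMO still changes in the colon when p35 is missing.

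Expression is given as FPKM, the number of fragments on a transcript divided by its length and by the size of the library, and was compared as log2(FPKM + 0.5), so that fold changes of weakly expressed genes are understated. A gene is called changed where the adjusted p of the limma model was below 0.05. The tissue label was checked first. Hoxb13, Hoxd13 and Cdx1, transcription factors of the distal gut, were abundant in all 10 libraries, at 236 to 297, 75.2 to 93.0 and 229 to 271 FPKM in Nemofl/fl and 236 to 289, 53.8 to 67.6 and 266 to 337 FPKM in the Il12a-labelled libraries. The Paneth cell defensins Defa24 and Defa30 were listed at 0 in all 10, and the small-intestinal sucrase Sis reached at most 0.123 FPKM. Fabp6, the ileal bile acid-binding protein, was present at 5.37 to 12.5 FPKM in Nemofl/fl and 16.4 to 31.3 in Il12a-labelled libraries without passing the test (adjusted p = 0.243). None of the 8 distal colon genes tested was called in either direction, with 1 higher and 3 lower at an unadjusted p under 0.05 (limma). The ranges of Hoxd13 and of Fabp6 did not overlap between the groups.

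Several properties of the libraries bear on every value below. All Nemofl/fl libraries carry the code K002000081 and all Il12a-labelled libraries the code K002000079 in their descriptions, whose meaning the labels do not give, so code and genotype can be separated only through NEMOIEC-KO, whose libraries have both. Mitochondrially encoded genes held 9.94% ± 2.3 of FPKM in Nemofl/fl and 4.76% ± 1.57 in Il12a-labelled libraries (SD, n = 5 each, exact two-sided permutation test over 252 splits, p = 0.0159, adjusted over 4 measures 0.0317). The 10 most abundant genes of a library held 12.8% ± 1.92 and 8.59% ± 1.12 of FPKM (p = 0.00794, the smallest that this exact permutation test can give, adjusted 0.0317). By Xist and Y-linked RNA, 0 of 5 Nemofl/fl and 2 of 5 Il12a-labelled libraries came from females. In addition, 1 library of each group stood apart. Il12a-labelled replicate 1 was the lowest of its group for all 14 smooth muscle markers and the highest for 36 of 39 interferon-γ response genes, and Nemofl/fl replicate 1 was the lowest of its group for all 14 smooth muscle markers and 15 of 16 B cell markers. The smooth muscle level did not separate the groups (mean log2 level 8.15 ± 0.845 against 8.28 ± 0.716, n = 5 each, exact permutation p = 0.738).

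Ikbkg (ENSMUSG00000004221, chromosome X, 74393290 to 74453854, GRCm38) was low in every library with the deletion. It had 11.0, 8.27, 8.35, 9.28 and 8.49 FPKM in Nemofl/fl replicates 1 to 5 and 3.83, 3.21, 4.29, 3.47 and 4.25 FPKM in the Il12a-labelled libraries. The groups did not overlap (log2 fold change -1.15, SE 0.13, adjusted p = 1.1e-05), and the level was close to that of NEMOIEC-KO, at 3.10 to 5.85 FPKM (log2 fold change -0.06, adjusted p = 0.785 between those groups). Il12a (ENSMUSG00000027776, chromosome 3, 68690644 to 68698547) went against its label. It had 0.360, 0.382, 0.248, 0.436 and 0.229 FPKM in Nemofl/fl and 0.610, 0.816, 1.98, 0.937 and 1.65 FPKM in the libraries labelled Il12a-/-, all 5 above every control (log2 fold change 0.97, SE 0.23, adjusted p = 0.0387). The call was lost in 13 of 23 alternative analyses, among them the fits without any 1 Nemofl/fl library and without Il12a-labelled replicate 2, 3, 4 or 5, where adjusted p was between 0.0546 and 0.0875. A value for the whole gene does not tell an intact from a partly deleted transcript, and the group is named by its label throughout. Il12b had 0 to 0.0669 FPKM in Nemofl/fl and 0.0350 to 0.136 in Il12a-labelled libraries (adjusted p = 0.502), and Il23a had 0.117 to 0.343 and 0.105 to 0.361 (adjusted p = 0.680). Both ranges overlapped.

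Few genes were called between the Il12a-labelled and the Nemofl/fl libraries in the fit of all 25 libraries. Of 19266 genes tested, 149 were called higher (0.773%) and 110 lower (0.571%), together 1.34%, and 69 of the higher (0.358% of all) and 16 of the lower genes (0.083%) differed by at least 2-fold. In 240 of the 259 called genes all libraries of 1 group lay above all of the other, which was true of 8.7% of all genes tested (5.19% higher and 3.52% lower). Beside them, NEMOIEC-KO against the same controls gave 2291 higher (11.9%) and 3911 lower genes (20.3%), 32.2% in all. The 2 comparisons share the Nemofl/fl libraries, so their calls are not independent. As a description, 122 of the 149 higher genes (81.9% of them, 5.33% of the NEMOIEC-KO list) and 100 of the 110 lower genes (90.9% and 2.56%) were also called in the same direction in NEMOIEC-KO. Tested directly, 1080 genes were higher (5.61%) and 771 lower (4%) in Il12a-labelled than in NEMOIEC-KO libraries, 9.61% in all.

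The number of calls depended on how the libraries were modelled. With the library code as a covariate 7 genes were higher and 2 lower, and with the mitochondrial share as a covariate 13 and 7. With sex as a covariate 57 were higher and 39 lower. The code term widened the median standard error of the difference from 0.145 to 0.253, and the code itself gave 0 called genes within NEMOIEC-KO (3 against 2 libraries, limma, with 642 of 19266 at an unadjusted p under 0.05). Fitted on the 10 libraries alone, 658 genes were higher and 343 lower. Leaving out any 1 of the 10 libraries gave 47 to 115 higher and 29 to 129 lower genes. Of the genes named below and called, Ikbkg, Rps3a3, Rps3a2, Hist1h2al, Slc16a1 and Cd1d2 were still called with the library code, and these and Ang4, Ap4b1, Cd74, H2-Aa, H2-Ab1, H2-DMb1, Hsd3b1, Hsd3b3 and Rps3a1 with the mitochondrial share. With sex as a covariate 15 of the 46 named and called genes lost their call (limma, adjusted p from 0.0539 to 0.133). They were Il12a, Ciita, Tap1, H2-Q6, Lat, Trbc2, Stat4, Tnfrsf4, Ltb, Ccl19, Cd163, Scnn1b, Tnip1, Fcrl1 and E2f3. The part of the library code, of sex and of the mitochondrial share in the individual results was not tested beyond these fits.

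Of the 43 gene lists, the one with the largest share of called genes was antigen presentation by MHC class II, the surface molecules that show peptides to CD4 T cells. Of the 11 genes in the list, all of which were tested, 7 were called higher in the Il12a-labelled libraries (63.6%) and 0 lower, with a median log2 fold change of 1.38 over the 11 genes beside -0.0038 over all genes tested. To show what these genes share beyond their RNA level, the window from 250 bases before to 50 bases after the start site is given for 3 of them, from RefSeq on GRCm38.p6. Capitals mark TGATTGG, the core of the Y box, which together with the W/S and X boxes makes up the module that CIITA, the master regulator of these genes, acts through.
H2-Aa, chr17:34287774-34288073, minus strand: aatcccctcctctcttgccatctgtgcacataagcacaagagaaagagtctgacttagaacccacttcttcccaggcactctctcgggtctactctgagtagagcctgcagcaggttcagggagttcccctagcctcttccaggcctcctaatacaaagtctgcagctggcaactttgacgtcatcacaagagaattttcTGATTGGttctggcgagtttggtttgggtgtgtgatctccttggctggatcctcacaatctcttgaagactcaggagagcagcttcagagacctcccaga
H2-Eb1, chr17:34305617-34305916, plus strand: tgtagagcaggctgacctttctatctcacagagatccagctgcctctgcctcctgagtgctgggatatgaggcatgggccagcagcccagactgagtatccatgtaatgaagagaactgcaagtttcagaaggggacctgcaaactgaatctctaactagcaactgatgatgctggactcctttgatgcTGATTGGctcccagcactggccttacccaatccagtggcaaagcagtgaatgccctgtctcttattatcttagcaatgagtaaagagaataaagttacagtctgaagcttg
H2-DMb1, chr17:34152941-34153240, plus strand: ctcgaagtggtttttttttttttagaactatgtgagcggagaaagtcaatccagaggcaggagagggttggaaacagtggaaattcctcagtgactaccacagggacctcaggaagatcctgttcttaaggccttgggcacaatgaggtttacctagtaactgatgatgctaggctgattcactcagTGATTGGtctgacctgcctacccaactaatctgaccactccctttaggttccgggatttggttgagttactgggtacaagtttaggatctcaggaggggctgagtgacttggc
The match began 50, 61 and 63 bases before the start site in H2-Aa, H2-Eb1 and H2-DMb1. Searched on both strands, TGATTGG was in the window of 7 of the 8 listed MHC class II genes that have an entry in the table (87.5%), and in 7.82% of all 32851 windows. A match describes the letters and does not show binding.

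H2-Aa, the α chain of the I-A molecule (chromosome 17, 34282744 to 34287823), had 97.1, 159.7, 95.0 and 89.8 FPKM in Nemofl/fl replicates 1, 2, 3 and 5, with replicate 4 between replicates 1 and 2. In the Il12a-labelled libraries it had 707, 281, 255, 243 and 435 FPKM, every one above every control, with replicates 1 and 5 highest (3.55 times in the group means, log2 fold change 1.73, SE 0.25, adjusted p = 0.000484). The NEMOIEC-KO libraries were higher still, at 1322 to 1911 FPKM (log2 fold change -2.20, adjusted p = 1.5e-05 for Il12a-labelled against NEMOIEC-KO), so that H2-Aa lay between the other 2 groups without overlap. The largest called difference of the list was in H2-DMb1, a subunit of the DM molecule that loads peptides onto class II (chromosome 17, 34153072 to 34160230). It had 5.91, 6.78, 5.91, 6.22 and 4.30 FPKM in Nemofl/fl and 87.3, 25.7, 19.6, 26.1 and 31.7 FPKM in Il12a-labelled libraries (log2 fold change 2.40, SE 0.27, adjusted p = 1.4e-05). Again no library overlapped, and NEMOIEC-KO libraries had 125 to 187 FPKM. Cd74, the invariant chain that escorts class II molecules, had 204, 333, 199, 199 and 185 FPKM in Nemofl/fl and 1606, 651, 537, 536 and 886 FPKM in Il12a-labelled libraries (log2 fold change 1.81, SE 0.26, adjusted p = 0.000484), and its lowest Il12a-labelled value was above its highest control.

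The other 4 called genes of the list were also higher than in the controls and lower than in NEMOIEC-KO. H2-Ab1, the I-A β chain, was at 79.0 to 119.5 FPKM in Nemofl/fl and 177 to 494 in Il12a-labelled libraries (log2 fold change 1.58, adjusted p = 0.000604). H2-Eb1, the I-E β chain, and H2-DMa, the partner of H2-DMb1, had log2 fold changes of 1.32 and 1.37. Ciita, the regulator itself, was low but separated the groups, with 0.800, 1.49, 0.698, 0.775 and 0.629 FPKM in Nemofl/fl and 7.33, 2.34, 2.00, 1.91 and 4.03 in Il12a-labelled libraries (log2 fold change 1.42, SE 0.34, adjusted p = 0.0387). Its call was lost without Nemofl/fl replicate 1, 3, 4 or 5 or Il12a-labelled replicate 1, 2 or 5 (adjusted p up to 0.0928). H2-DMb2, H2-Oa, H2-Ob and H2-Eb2 did not pass the test, although all 11 genes were higher at an unadjusted p under 0.05 (limma). Unlike the 7 called genes, these 4 had higher means in Il12a-labelled than in NEMOIEC-KO libraries. The means were 15.1 against 8.17 FPKM for H2-DMb2, 7.07 against 3.72 for H2-Oa, 9.18 against 4.45 for H2-Ob and 1.78 against 0.914 for H2-Eb2. Of the list, 0 genes were called higher than in NEMOIEC-KO. H2-DMb2 and H2-DMb1 are close copies, so reads may have been divided between them in an unknown way.

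All 7 called class II genes were lower in Il12a-labelled than in NEMOIEC-KO libraries, and the median over the 11 genes was 3.21 for NEMOIEC-KO against Nemofl/fl. The level of the list, averaged over its genes on the log2 scale, was 3.38, 4.21, 3.60, 3.54 and 3.29 in Nemofl/fl replicates 1 to 5 and 5.67, 5.03, 4.62, 4.66 and 5.53 in Il12a-labelled replicates 1 to 5. Nemofl/fl replicate 2 was the highest control for all 11 genes and also the highest control for all 16 B cell markers. B cells carry class II molecules themselves, and the summed FPKM of the 16 markers was 29.6 to 93.8 in Nemofl/fl and 104 to 214 in Il12a-labelled libraries, with 0 of the 16 called. Their part in the class II values was not tested. Without Il12a-labelled replicate 1, the library that stood apart, 6 of 11 genes were called with a median of 1.35. With the library code as a covariate 0 of 11 were called while the median was 1.50, and with the mitochondrial share 4 of 11 were called.

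Some genes of the interferon response lists were also called higher. Of 39 interferon-γ response genes tested 9 were called higher and 0 lower (median log2 fold change 0.93), where NEMOIEC-KO had 39 of 39 higher (median 2.79). Of 27 type I interferon response genes 8 were called higher (median 0.60) and 25 in NEMOIEC-KO (median 1.33). Directly against NEMOIEC-KO, 36 of the 39 and 19 of the 27 were lower in the Il12a-labelled libraries, where 4% of all genes tested were. Promoter windows of 2 called type I interferon response genes are shown because 1 motif recurs in the list. Capitals mark TTTC and TTTC with any 2 bases between them, here on the reverse strand and so read as GAAA and GAAA, which is the core of the interferon-stimulated response element that interferon regulatory factors bind. Overlapping matches are joined.
Isg15, chr4:156200769-156201068, minus strand: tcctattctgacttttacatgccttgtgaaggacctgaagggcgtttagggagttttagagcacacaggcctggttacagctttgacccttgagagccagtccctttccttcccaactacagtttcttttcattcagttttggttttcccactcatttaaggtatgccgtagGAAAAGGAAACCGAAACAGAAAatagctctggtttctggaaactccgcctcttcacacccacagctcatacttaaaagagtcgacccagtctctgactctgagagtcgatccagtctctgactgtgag
Oas3, chr5:120777610-120777909, minus strand: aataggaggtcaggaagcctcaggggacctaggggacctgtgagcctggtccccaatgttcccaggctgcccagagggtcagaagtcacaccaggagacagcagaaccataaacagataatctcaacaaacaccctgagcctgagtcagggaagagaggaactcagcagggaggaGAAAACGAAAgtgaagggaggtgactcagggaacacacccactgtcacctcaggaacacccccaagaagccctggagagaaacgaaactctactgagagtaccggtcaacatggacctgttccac
Isg15 had 3 overlapping matches and Oas3 had 1. Searched on both strands, the motif was in a window of 11 of the 20 type I interferon response genes with an entry (55.0%) and of 11 of the 25 interferon-γ response genes with one (44.0%). It was in 3.44% of all windows, a share that counts windows and not genes. Counted by gene, it was in 12.9% of the genes called higher and 1.28% of those called lower.

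Ifi47, an interferon-γ-induced GTPase that acts against intracellular microbes (chromosome 11, 49076587 to 49096974), showed the largest called difference of these lists. It had 1.40, 2.46, 1.87, 1.74 and 1.41 FPKM in Nemofl/fl and 35.8, 10.1, 7.53, 12.6 and 14.5 FPKM in Il12a-labelled libraries (log2 fold change 2.67, SE 0.38, adjusted p = 0.000414). Every Il12a-labelled library was above every control, and every NEMOIEC-KO library, at 41.0 to 108 FPKM, was above the Il12a-labelled ones. Oas3, a sensor of double-stranded RNA, had 0.405, 0.599, 0.750, 0.312 and 0.306 FPKM in Nemofl/fl and 9.29, 2.31, 1.95, 5.67 and 2.84 FPKM in Il12a-labelled libraries (log2 fold change 2.15, SE 0.32, adjusted p = 0.000721), of which replicates 1 and 4 were highest. Isg15, a ubiquitin-like protein, had 5.47, 8.17, 8.90, 4.50 and 5.33 FPKM against 50.1, 17.1, 15.4, 48.1 and 19.3 (log2 fold change 1.98, SE 0.31, adjusted p = 0.00123), again with replicates 1 and 4 highest and no overlap. Nlrc5, the regulator of MHC class I genes, had 0.847 to 1.30 FPKM in Nemofl/fl and 3.41 to 17.9 in Il12a-labelled libraries (log2 fold change 2.06, adjusted p = 0.00198).

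Psmb9 and Tap1, which prepare peptides for MHC class I, were named after their values were seen. Psmb9, an inducible proteasome subunit, had 13.8, 13.7, 14.1, 10.3 and 14.3 FPKM in Nemofl/fl and 87.2, 34.4, 34.5, 39.2 and 36.8 in Il12a-labelled libraries (log2 fold change 1.68, SE 0.24, adjusted p = 0.000484). Tap1, a subunit of the peptide transporter, had 7.91 to 12.3 against 18.6 to 66.3 FPKM (log2 fold change 1.49, adjusted p = 0.0208), and its call was lost without Nemofl/fl replicate 1, 4 or 5 or Il12a-labelled replicate 1 (adjusted p up to 0.0610). H2-Q6, a class I gene with near-identical neighbours whose reads may be divided among them, had 2.63 to 7.84 against 11.7 to 56.0 FPKM (log2 fold change 1.99, adjusted p = 0.0187). Its call was lost without Nemofl/fl replicate 1 or 5 or Il12a-labelled replicate 1, with adjusted p up to 0.0615. Zbp1, a nucleic acid sensor that can start necroptosis and was the 1 cell death gene of 29 called, had 22.3, 16.7, 19.4, 21.9 and 25.4 FPKM in Nemofl/fl and 133, 46.7, 50.5, 73.4 and 62.7 FPKM in Il12a-labelled libraries (log2 fold change 1.67, SE 0.26, adjusted p = 0.00102). Every Il12a-labelled library was above every control, and replicate 1 reached the NEMOIEC-KO range of 115 to 260.0 FPKM.

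The level of the interferon-γ response list was uneven among the Il12a-labelled libraries. Averaged over its 39 genes on the log2 scale it was 4.03, 2.60, 2.46, 2.96 and 3.01 in replicates 1 to 5, and 2.01, 2.25, 2.00, 2.04 and 1.98 in Nemofl/fl. Replicate 1 lay just below the NEMOIEC-KO libraries, whose levels were 4.33, 5.41, 5.62, 4.13 and 5.05. The same library had the most Clca4b, a calcium-activated chloride channel regulator, at 907 FPKM where the other 4 had 9.19 to 24.5, and the most Ly6a, an interferon-inducible surface marker, at 2285 FPKM where the other 4 had 582 to 647. Neither gene was called (adjusted p = 0.0993 and 0.0781). Without replicate 1, 6 of 39 interferon-γ response genes (median 0.68) and 5 of 27 type I interferon response genes (median 0.44) were called higher. Without Nemofl/fl replicate 1 or 4, 5 of 39 were called, and 5 of 27 without Nemofl/fl replicate 4. With the library code as a covariate 0 genes of either list were called and the medians were 1.01 and 0.44. With the mitochondrial share as a covariate 0 were called and the medians were 0.48 and 0.49. No interferon or interferon receptor gene was called among the 7 tested, Ifngr1 included (adjusted p = 0.219).

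**Figure D1:**
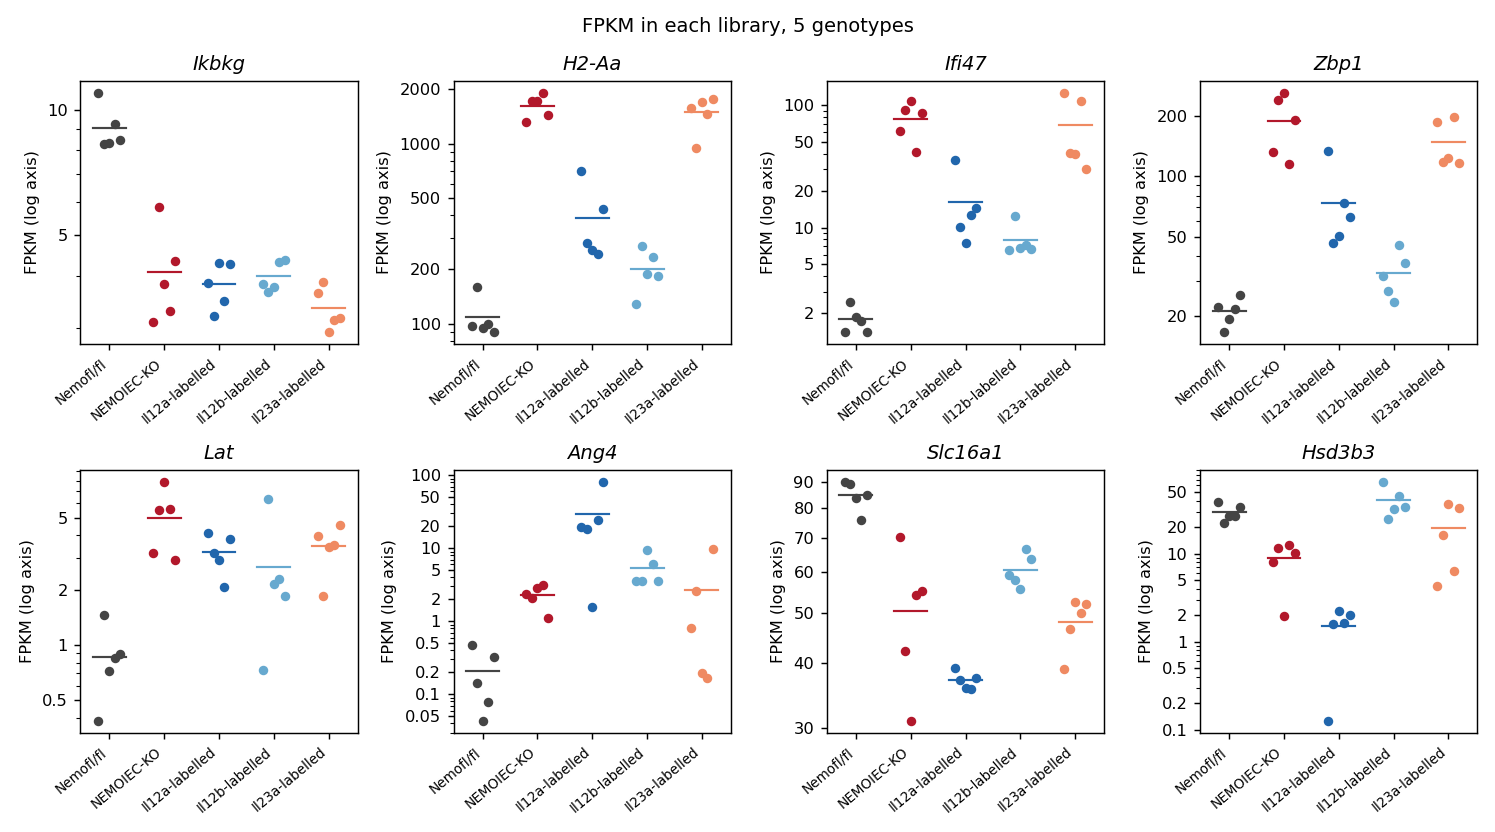
FPKM of 8 genes (vertical, log axis) in each library (points, replicates 1 to 5 from left to right) of 5 genotypes, with lines at the arithmetic group mean. The Il12a-labelled means of H2-Aa, Ifi47 and Zbp1 lie between those of Nemofl/fl and NEMOIEC-KO, Ikbkg is low in every group with the deletion, and in the Il12a-labelled libraries Slc16a1 and Hsd3b3 are below every control.

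Among the markers of immune cell types, the T cell list had the most calls. Of 21 T cell markers 4 were called higher (median log2 fold change 0.76), and 19 in NEMOIEC-KO (median 1.30). Lat, the adaptor that links the T cell receptor to its signalling chain, had 0.385, 1.46, 0.720, 0.846 and 0.892 FPKM in Nemofl/fl and 4.14, 3.20, 2.94, 2.08 and 3.83 FPKM in Il12a-labelled libraries (log2 fold change 1.48, SE 0.33, adjusted p = 0.0310). Trbc2, the constant region of the T cell receptor β chain, had 1.06, 2.34, 2.30, 1.69 and 1.96 FPKM against 7.95, 6.50, 3.42, 4.19 and 7.65 (log2 fold change 1.41, SE 0.33, adjusted p = 0.0377). Neither gene overlapped between the groups. Stat4, the transcription factor that IL-12 activates, had 0.190, 0.551, 0.180, 0.177 and 0.112 FPKM in Nemofl/fl and 0.896, 2.06, 0.858, 0.873 and 1.53 FPKM in Il12a-labelled libraries (log2 fold change 1.21, SE 0.26, adjusted p = 0.0210), and did not differ detectably from NEMOIEC-KO (log2 fold change -0.07, adjusted p = 0.877). In the list of type 1 and cytotoxic lymphocyte genes Stat4 was the 1 gene of 15 called, where NEMOIEC-KO had 14 higher. Tnfrsf4, the costimulatory receptor OX40, rose by a log2 fold change of 0.90 (adjusted p = 0.0255).

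All 4 T cell calls were lost without Nemofl/fl replicate 1, 3, 4 or 5, and without Il12a-labelled replicate 1, 2 or 5, and for Lat the adjusted p was then at most 0.0843. Stat4 was lost without Nemofl/fl replicate 1, 3, 4 or 5 or Il12a-labelled replicate 2 (adjusted p up to 0.0698), and Tnfrsf4 without Nemofl/fl replicate 1, 2, 4 or 5 or Il12a-labelled replicate 1 or 4 (adjusted p up to 0.0658). Other genes of lymphoid tissue were also called. Ltb, the lymphotoxin subunit that organises lymphoid follicles, had 1.72, 6.98, 4.70, 3.77 and 2.48 FPKM in Nemofl/fl and 11.4, 17.6, 10.2, 9.22 and 18.2 FPKM in Il12a-labelled libraries (log2 fold change 1.72, SE 0.40, adjusted p = 0.0376). Ccl19, a chemokine that draws lymphocytes into follicles and was named after its values were seen, had 0.519, 2.09, 0.764, 1.76 and 0.894 against 6.45, 5.50, 3.31, 4.57 and 7.18 FPKM (log2 fold change 1.84, SE 0.39, adjusted p = 0.0210). The Ltb call was lost without Nemofl/fl replicate 1, 3, 4 or 5 or Il12a-labelled replicate 1, 2 or 5 (adjusted p up to 0.101), and that of Ccl19 without Nemofl/fl replicate 1, 3 or 5 or Il12a-labelled replicate 1 or 2 (adjusted p up to 0.0683). Means were 13.3 FPKM in Il12a-labelled and 12.1 in Il12b-labelled libraries for Ltb, and 5.40 and 4.67 for Ccl19.

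No B cell marker passed the test (0 of 16 by limma, with 15 of 16 higher at an unadjusted p under 0.05), although the median log2 fold change was 1.36. Cd79a, a signalling chain of the B cell receptor, had 3.35, 15.1, 10.1, 8.40 and 5.25 FPKM in Nemofl/fl and 21.4, 44.6, 24.3, 20.2 and 44.5 FPKM in Il12a-labelled libraries (log2 fold change 1.89, SE 0.52, adjusted p = 0.0652). The Il12a-labelled range lay above the control range. The list did not follow the order of the interferon genes, since its mean log2 level in replicates 1 to 5 was 0.61, 2.22, 1.64, 1.38 and 1.09 in Nemofl/fl, 2.28, 3.00, 2.35, 2.25 and 3.29 in Il12a-labelled and 1.59, 1.90, 1.96, 0.86 and 1.74 in NEMOIEC-KO libraries. Against NEMOIEC-KO, 1 of the 16 was called higher, where 5.61% of all genes tested were. The Il12b-labelled libraries had a median of 1.02 against Nemofl/fl, with a positive log2 fold change in all 16 and 0 called. Between Il12a-labelled and Il12b-labelled libraries 0 of the 16 were called (median 0.32). Fitted on the 10 libraries alone, 10 of the 16 markers were called. With the mitochondrial share as a covariate the median was 0.68. None of 17 plasma cell and immunoglobulin constant genes was called by limma, with 11 higher at an unadjusted p under 0.05 (median 0.95), where NEMOIEC-KO had 16 called higher (median 1.92). Of these, Iglc1, a λ light chain, had 14.0 to 43.8 FPKM in Nemofl/fl and 47.4 to 178 in Il12a-labelled libraries (adjusted p = 0.0612).

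**Figure D2:**
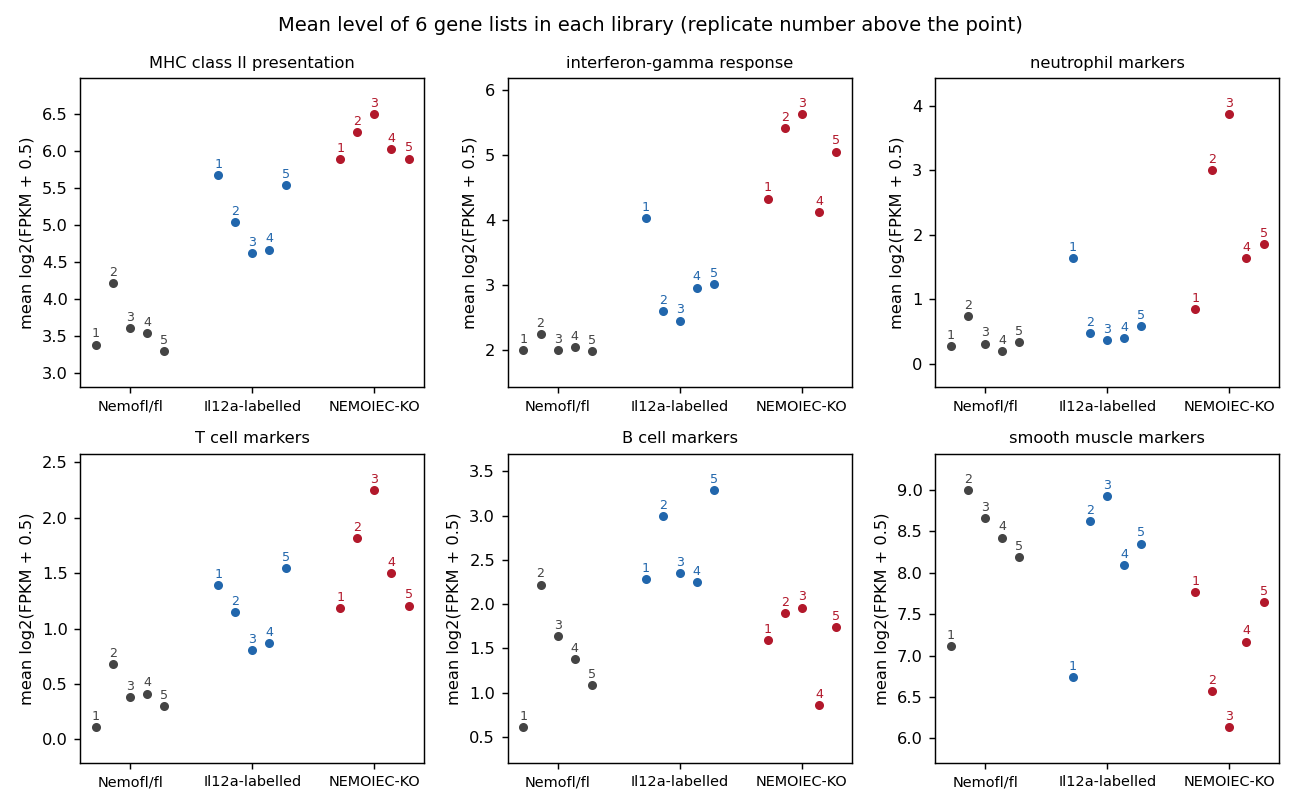
Mean log2(FPKM + 0.5) of 6 gene lists (vertical) in the libraries of 3 groups, with the replicate number above each point. The Il12a-labelled libraries lie between the other groups for MHC class II and interferon-γ response genes, and replicate 1 is the highest of them for interferon-γ response and neutrophil genes and the lowest for smooth muscle genes. Of the 3 groups plotted, the B cell list is highest in Il12a-labelled libraries.

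Most of the inflammatory gene groups called in NEMOIEC-KO had few or no calls here. Of 21 neutrophil markers 0 were called by limma, with 1 higher at an unadjusted p under 0.05 (median 0.29), against 16 higher in NEMOIEC-KO (median 1.73). Ly6g, a gene of the list from a family of close copies, had 251 to 424 FPKM in Nemofl/fl and 359 to 538 in Il12a-labelled libraries. Cd177, another gene of the list, reached 250.1 FPKM in Il12a-labelled replicate 1 and 50.4 to 56.6 in the other 4, which overlapped the controls at 38.9 to 59.9. Other listed genes were far lower in Nemofl/fl, such as S100a8 (0.3813 to 2.985 FPKM), Csf3r (0.1237 to 0.4355) and Cxcr2 (0.007834 to 0.06573). In Il12a-labelled libraries these had 0.3921 to 49.42, 0.2455 to 2.034 and 0.03545 to 0.2172 FPKM. Which cells made the Ly6g and Cd177 RNA was not tested. Of 16 myeloid-attracting chemokines 0 were called, with 2 higher at an unadjusted p under 0.05 (median -0.02), against 9 in NEMOIEC-KO (median 1.42). Ccl8, which attracts monocytes, had 3.38, 3.00, 1.69, 3.06 and 2.26 FPKM in Nemofl/fl and 27.7, 3.68, 5.75, 8.12 and 16.4 FPKM in Il12a-labelled libraries without passing the test (adjusted p = 0.0769). Of 14 type 2 and mast cell genes 0 were called, and the mast cell protease Mcpt1 had 8.18 FPKM in Il12a-labelled replicate 1 and 0.549 to 1.26 in the others.

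A gene that misses the threshold is not shown to be at the control level, and the direct comparison with NEMOIEC-KO is the test of the difference between those groups. In it, 3 of 21 neutrophil markers, 2 of 16 chemokines, 9 of 23 wound-associated epithelial genes and 5 of 22 epithelial antimicrobial genes were lower in Il12a-labelled libraries. Over all genes tested 4% were lower in that comparison. In the monocyte and macrophage list 1 of 22 genes was called, and it was lower. Cd163, a scavenger receptor of resident macrophages, had 2.62, 1.50, 1.54, 2.06 and 2.60 FPKM in Nemofl/fl and 0.418, 0.366, 0.936, 0.854 and 1.48 FPKM in Il12a-labelled libraries (log2 fold change -1.01, SE 0.24, adjusted p = 0.0387). The groups did not overlap, and NEMOIEC-KO was at 0.240 to 1.12 FPKM. The call was lost without Nemofl/fl replicate 1, 3, 4 or 5 or Il12a-labelled replicate 1, 2, 3 or 4 (adjusted p up to 0.119).

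In the epithelium, Ang4 was the 1 antimicrobial gene of 22 called. Ang4, a secreted ribonuclease of Paneth and goblet cells (chromosome 14, 51763878 to 51773590), had 0.472, 0.143, 0.0437, 0.0779 and 0.323 FPKM in Nemofl/fl and 19.9, 18.1, 1.56, 24.3 and 81.7 FPKM in Il12a-labelled libraries (log2 fold change 4.65, SE 0.71, adjusted p = 0.000838). It was higher than in NEMOIEC-KO too, where it had 2.35, 2.06, 2.88, 3.16 and 1.105 FPKM (log2 fold change 2.69, adjusted p = 0.0224), while replicate 3 lay within the NEMOIEC-KO range. Ang4 belongs to a family of close copies, so reads may be shared among them. Wfdc18, a secreted protein with a protease-inhibitor domain, had 8.58, 9.91, 15.0, 8.15 and 16.3 FPKM in Nemofl/fl and 148, 48.2, 30.9, 39.6 and 46.9 FPKM in Il12a-labelled libraries (log2 fold change 2.20, SE 0.45, adjusted p = 0.0157), with replicate 1 far above the other 4. Its call was lost without Nemofl/fl replicate 1 (adjusted p = 0.0528). Among the other epithelial lists, 0 of 23 wound-associated genes, 0 of 23 unfolded protein response genes, 0 of 25 proliferation genes and 0 of 16 stem cell genes were called, and 1 of 19 goblet cell genes, again Ang4. In NEMOIEC-KO 13 wound-associated and 15 unfolded protein response genes were called higher.

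The list with the most genes called lower was one of epithelial metabolism. Of 38 genes of drug, bile and steroid metabolism 4 were called lower and 0 higher (median log2 fold change -0.34), against 28 lower in NEMOIEC-KO (median -0.98). Hsd3b3, a 3β-hydroxysteroid dehydrogenase (chromosome 3, 98741523 to 98763127), had 39.3, 22.3, 27.2, 26.9 and 34.0 FPKM in Nemofl/fl and 0.127, 1.58, 2.23, 1.65 and 2.01 FPKM in Il12a-labelled libraries (log2 fold change -4.05, SE 0.53, adjusted p = 0.000126). It was also lower than in NEMOIEC-KO, at 8.17, 11.6, 1.95, 12.7 and 10.3 FPKM (log2 fold change -2.18, adjusted p = 0.0147), although NEMOIEC-KO replicate 3 overlapped the Il12a-labelled range. The mean of Hsd3b3 was 40.8 FPKM in Il12b-labelled and 19.5 in Il23a-labelled libraries. The gene lies in the interval of chromosome 3 described below, where calls were more frequent. Ces1f, a carboxylesterase, had 18.3, 7.04, 11.1, 8.46 and 11.3 FPKM in Nemofl/fl and 0.523, 0.709, 3.54, 2.49 and 2.79 FPKM in Il12a-labelled libraries (log2 fold change -2.35, SE 0.45, adjusted p = 0.0104). Its neighbour Ces1g, of the same enzyme family, fell by 1.23 on the log2 scale (adjusted p = 0.0232), a call lost without Nemofl/fl replicate 1 or 3 or Il12a-labelled replicate 2 or 4 (adjusted p up to 0.0750). The list had 1 call with the mitochondrial share as a covariate, 0 with the library code, and 2 without Nemofl/fl replicate 1 or 3 or Il12a-labelled replicate 2 or 4.

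Slc16a1, the monocarboxylate transporter that takes up butyrate from the colon lumen (chromosome 3, 104638668 to 104658462), was lower in every Il12a-labelled library than in every control. It had 90.0, 89.1, 83.7, 75.9 and 84.7 FPKM in Nemofl/fl and 39.2, 37.1, 35.9, 35.6 and 37.5 FPKM in Il12a-labelled libraries (log2 fold change -1.18, SE 0.14, adjusted p = 2.2e-05). The Il12a-labelled libraries spanned a narrow range below all controls, and the call held in all 24 alternative analyses. The gene was also lower in NEMOIEC-KO than in Nemofl/fl (mean 50.6 FPKM, log2 fold change -0.79, limma adjusted p = 0.000291). The Il12a-labelled libraries were lower than the Il12b-labelled ones, whose mean was 60.7 FPKM (log2 fold change -0.70, limma adjusted p = 0.0123). Slc16a1 lies in the interval of chromosome 3 described below, where calls were more frequent. Scnn1b, a subunit of the epithelial sodium channel, had 20.8, 19.7, 15.0, 16.4 and 15.1 FPKM against 8.95, 5.08, 14.7, 6.21 and 7.28 (log2 fold change -1.08, SE 0.27, adjusted p = 0.0473), a call lost in 16 of 24 alternatives, among them the fits without each library but Il12a-labelled replicate 3 (adjusted p up to 0.142). These were the 2 colonocyte genes of 28 called, both lower, and the median over the 28 was -0.36, or 0.06 with the mitochondrial share as a covariate. Esrrg, a nuclear receptor that drives oxidative metabolism, had 1.94, 1.27, 1.27, 1.19 and 1.34 FPKM in Nemofl/fl and 0.239, 0.297, 0.472, 0.533 and 0.604 in Il12a-labelled libraries (log2 fold change -1.03, SE 0.18, adjusted p = 0.00435). Of 25 genes of fatty acid oxidation and ketogenesis 0 were called, against 13 lower in NEMOIEC-KO. Pdk4, which restrains glucose oxidation, had 2.42 to 5.95 FPKM in Nemofl/fl and 0.949 to 3.25 in Il12a-labelled libraries (adjusted p = 0.0614).

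In the NF-κB list 3 of 26 genes were called, beside 1.34% of all genes tested. Among the 3 was Ikbkg, the deleted gene itself, whose call follows from the genotype and does not describe the pathway. Besides Ikbkg, Tnip1, an inhibitor of NF-κB that is also its target, was lower, with 90.9, 78.8, 84.0, 96.3 and 92.9 FPKM in Nemofl/fl and 54.0, 55.2, 59.1, 60.7 and 60.0 FPKM in Il12a-labelled libraries (log2 fold change -0.61, SE 0.14, adjusted p = 0.0342). That call was lost without Nemofl/fl replicate 1, 3, 4 or 5 or Il12a-labelled replicate 1, 2, 3 or 4 (adjusted p up to 0.0855). Map3k14, the kinase NIK of the non-canonical branch, was higher, with 2.15, 4.07, 2.87, 3.57 and 3.32 against 4.89, 5.88, 4.66, 5.68 and 5.31 FPKM (log2 fold change 0.67, SE 0.12, adjusted p = 0.00497), and did not differ detectably from NEMOIEC-KO (log2 fold change 0.05, adjusted p = 0.816). The other 23 genes of the pathway did not pass the test.

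**Figure D3:**
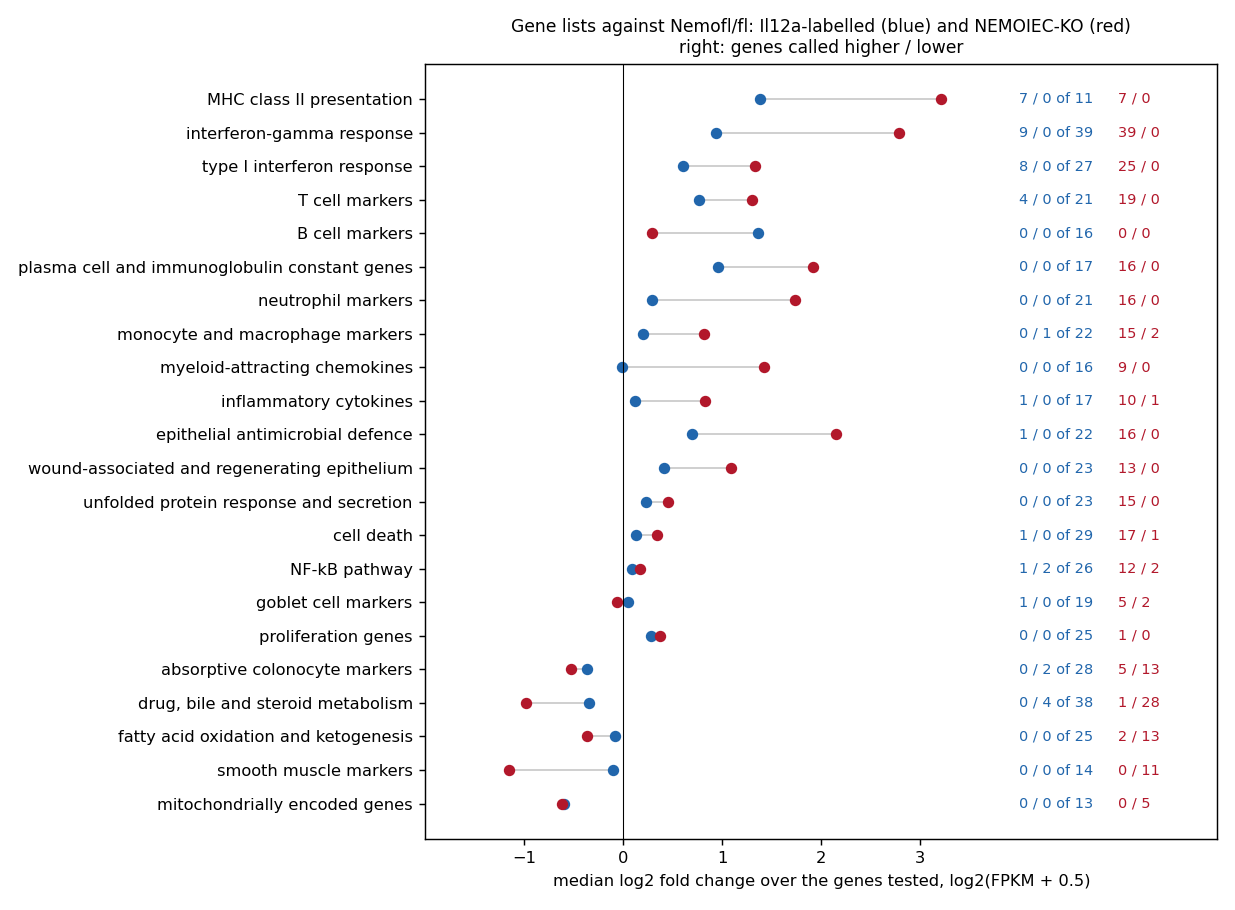
Median log2 fold change against Nemofl/fl over the tested genes of 22 lists (horizontal, log2(FPKM + 0.5) scale) in Il12a-labelled (blue) and NEMOIEC-KO libraries (red), with the number of genes called higher and lower at the right. Both share the Nemofl/fl libraries. The MHC class II and interferon lists have medians of 1.38, 0.93 and 0.60 in blue, each below the red point, and of the immune lists plotted the B cell list is the 1 with the blue point to the right.

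Among the largest differences were copies of gene families that were much lower in both Nemofl/fl and NEMOIEC-KO. Rps3a3 (chromosome 13, 108670603 to 108671397), a copy of the gene for ribosomal protein S3A, had 4.38, 6.17, 7.47, 4.88 and 5.93 FPKM in Nemofl/fl and 444, 595, 569.8, 493 and 468 FPKM in Il12a-labelled libraries (log2 fold change 6.37, SE 0.13, adjusted p = 2.2e-20), while NEMOIEC-KO libraries had 7.22 to 8.65 (log2 fold change 5.95, adjusted p = 5.7e-20 for Il12a-labelled against NEMOIEC-KO). Rps3a2, another copy on chromosome 14, had 6.85 to 10.3 FPKM in Nemofl/fl and 71.9 to 87.4 in Il12a-labelled libraries (log2 fold change 3.06, adjusted p = 9.1e-14). Rps3a1, the expressed parent gene on chromosome 3, fell by 0.75 on the log2 scale (adjusted p = 2.5e-05). It starts 17.45 Mb after the Il12a start, in the interval of chromosome 3 described below. The copies are near-identical, so the division of reads among them is uncertain. Summed over the copies, FPKM was 1013 ± 91.4 for Nemofl/fl, 1183 ± 108.3 for Il12a-labelled libraries and 1047 ± 80.8 for NEMOIEC-KO (SD, n = 5 each). Hist1h2al, a histone H2A gene with close copies, was listed at 0 in 3 of 5 Nemofl/fl libraries and at 0.0971 and 0.119 FPKM in the others, and had 21.0, 32.8, 36.5, 29.5 and 28.2 FPKM in Il12a-labelled libraries (adjusted p = 4.4e-20). Means in Il12b-labelled and Il23a-labelled libraries were 7.01 and 7.22 FPKM for Rps3a3, 10.5 and 9.64 for Rps3a2, and 0.0223 and 0.0418 for Hist1h2al.

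The called genes were not evenly spread over the genome. Chromosome 3, which carries Il12a, had 34 called genes of 1023 tested (3.32%), against 223 of 18178 (1.23%) on the other named chromosomes. Chromosome 17, which carries the MHC, had 23 of 903 (2.55%). On chromosome 3, 28 of the 34 lay between 10 and 40 Mb after the Il12a start, where 464 genes were tested (6.03% called, 13 higher and 15 lower), and 6 of 559 were called on the rest of the chromosome (1.07%). The bounds of 10 and 40 Mb were chosen after the positions of the calls were seen, so the contrast between these shares follows in part from that choice. Against NEMOIEC-KO 74 of the 464 (15.9%) and 42 of the 559 (7.51%) were called. Against the Il12b-labelled libraries 20 of the 464 and 0 of the 559 were called. NEMOIEC-KO against Nemofl/fl had 30.6% called in the interval and 29.9% outside it. No cause for this distribution was tested.

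Members of 1 gene family in this interval moved in opposite directions. Hsd3b3, described above, and Hsd3b2 were lower, Hsd3b2 with 5.20, 2.23, 4.12, 2.95 and 4.57 FPKM in Nemofl/fl and 0.319, 0.280, 0.471, 0.326 and 0.492 FPKM in Il12a-labelled libraries (log2 fold change -2.25, SE 0.32, adjusted p = 0.000414). Hsd3b1, which was named after its values were seen, was higher, with 0.0910, 0.0636, 0.0619, 0.0691 and 0.0575 FPKM against 0.769, 0.794, 2.00, 0.753 and 0.996 (log2 fold change 1.40, SE 0.14, adjusted p = 2.3e-06). All 3 start between 30.02 and 30.16 Mb from Il12a and none overlapped between the groups. Hsd3b genes are close copies, so reads may be divided among them. Cd1d2, an antigen-presenting molecule for lipids that was also named after its values were seen, was at 0 to 0.0720 FPKM in Nemofl/fl and 0.447 to 1.04 in Il12a-labelled libraries (log2 fold change 1.19, adjusted p = 3.2e-07). Means in Il12b-labelled and Il23a-labelled libraries were 0.0870 and 0.0556 FPKM for Hsd3b1, 0.0384 and 0.0306 for Cd1d2, and 4.89 and 2.02 for Hsd3b2. Slc16a1 and Ap4b1, a subunit of an adaptor complex of vesicle transport, are in the same interval, and Ap4b1 had 9.09, 9.61, 8.34, 8.97 and 9.05 FPKM in Nemofl/fl and 6.36, 5.83, 5.58, 5.47 and 5.55 in Il12a-labelled libraries (log2 fold change -0.60, SE 0.08, adjusted p = 0.000293).

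Mir142hg, the host transcript of a microRNA of blood cells, had 0.762, 10.7, 4.65, 3.84 and 2.52 FPKM in Nemofl/fl and 17.6, 26.3, 12.9, 11.0 and 17.7 FPKM in Il12a-labelled libraries (log2 fold change 2.09, SE 0.42, adjusted p = 0.0141), a call lost without Il12a-labelled replicate 2 (adjusted p = 0.0538). Fcrl1, an Fc receptor-like protein of B cells that lies in the chromosome 3 interval, had 0.321, 2.79, 1.48, 0.850 and 0.498 FPKM against 5.01, 7.30, 4.25, 3.29 and 9.56 (log2 fold change 2.02, SE 0.44, adjusted p = 0.0255) and was also higher than in NEMOIEC-KO (log2 fold change 1.47, adjusted p = 0.0373). The first of these calls was lost without Nemofl/fl replicate 1, 4 or 5 or Il12a-labelled replicate 1, 2 or 5 (adjusted p up to 0.0761). Hist2h2be, a histone H2B gene with close copies in the same interval, fell by 1.03 on the log2 scale, with 3.90 to 4.75 FPKM in Nemofl/fl and 1.23 to 2.65 in Il12a-labelled libraries (adjusted p = 0.00372). E2f3, a transcription factor of the cell cycle, fell by 1.05, with 6.50 to 16.5 against 3.14 to 5.94 FPKM (adjusted p = 0.0392), a call lost without Nemofl/fl replicate 1, 3, 4 or 5 or Il12a-labelled replicate 1, 2, 3 or 4 (adjusted p up to 0.114).

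**Figure D4:**
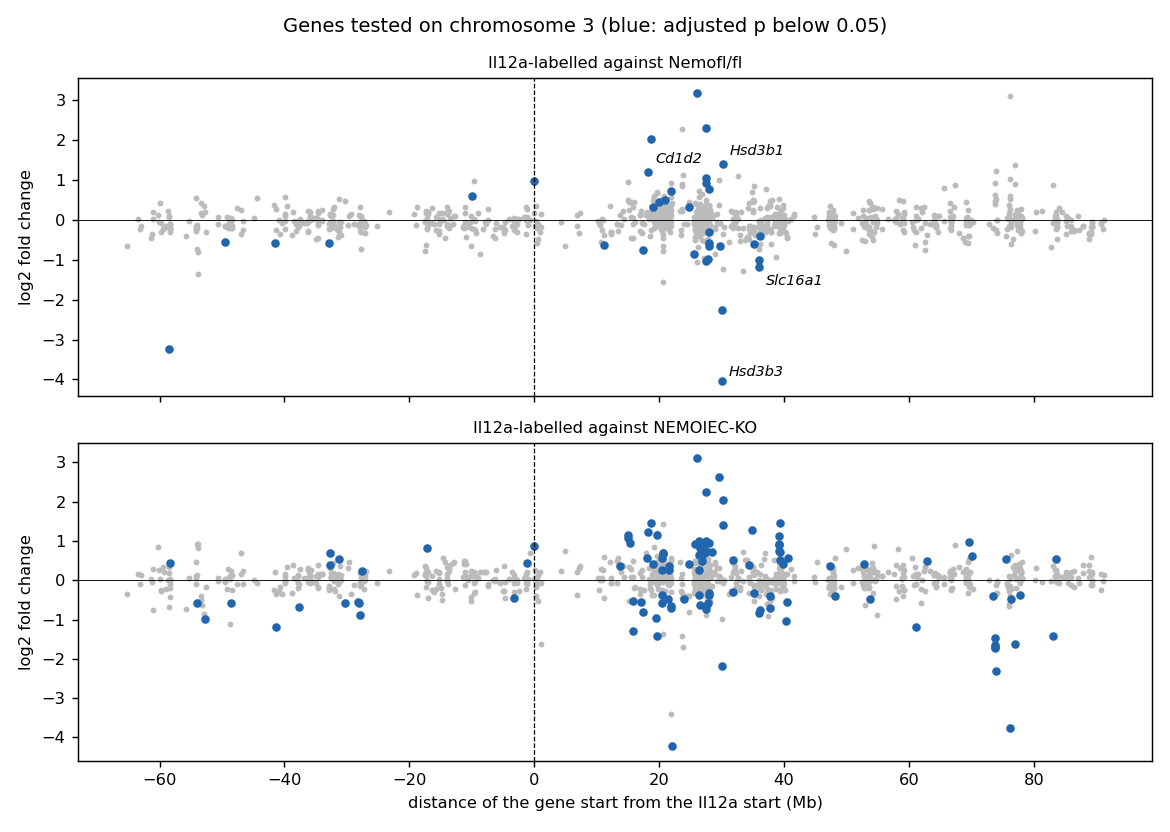
Log2 fold change (vertical) of the 1023 tested genes of chromosome 3 by the distance of their start from the Il12a start in Mb (horizontal), for Il12a-labelled against Nemofl/fl (upper) and against NEMOIEC-KO (lower), with called genes in blue. In the upper plot 28 of the 34 called genes lie 10 to 40 Mb after Il12a.

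Of the direct comparisons of the Il12a-labelled libraries with other groups, the one with Il12b-labelled libraries had the fewest calls. All libraries of these groups carry the same library code, which no Nemofl/fl library has. The part of the code in this ranking was not tested. Of 19266 genes 34 were higher (0.176%) and 45 lower (0.234%) in Il12a-labelled than in Il12b-labelled libraries (0.41% in all). Of these 79 genes, 20 lay in the chromosome 3 interval described above, whose bounds were chosen after the calls were seen. Against the Il23a-labelled libraries 77 were higher (0.4%) and 147 lower (0.763%), in all 1.16%. No gene of the MHC class II or of either interferon list was called between the Il12a-labelled and Il12b-labelled libraries, which does not show that the levels were equal. The median difference over the class II genes was 0.56, and for H2-DMb1 it was 1.18 (adjusted p = 0.0542). Against the Il23a-labelled libraries 7 of 11 class II genes, 27 of 39 interferon-γ response genes and 8 of 27 type I interferon response genes were lower in the Il12a-labelled libraries. Hsd3b3 was lower in Il12a-labelled than in both other double mutants (log2 fold change -4.43 and -3.04, adjusted p = 2.5e-05 and 0.00361).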

How the data were processed

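RNA of distal colon was sequenced as poly(A)-selected, stranded, paired-end libraries, per the labels' protocols. The authors deposited 1 table of FPKM for all libraries. Cufflinks 2.1.1, TopHat2 2.0.10 and DESeq2 1.10.1, with the build GRCm38, are named in the submitters' processing notes without the role of each, and the annotation is not given in the sources used here. No read counts were used, so depth is unknown and no counting interval or floor was computed. Of 49452 gene identifiers 49109 matched a symbol and a GENCODE M21 position.

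FPKM was transformed to log2(FPKM + 0.5) and 19266 genes that reached 0.2 FPKM in 5 libraries or more were kept. All 25 libraries entered 1 limma 3.58.1 fit (R 4.3.3) with 1 mean per genotype, a trend in the prior variance and 20 residual degrees of freedom. Tests were two-sided with Benjamini-Hochberg adjustment over all genes of a contrast and a threshold of 0.05. Contrasts that share libraries are not independent. Library measures were compared by exact permutation. The members and the 43 gene lists (805 of 810 entries matched, with 5 sex-linked genes as a further list) were chosen with earlier results of these data known.

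Named genes are the 4 targeted genes, the 10 called genes with the largest change in each direction, the 8 also called in the same direction in NEMOIEC-KO and the 5 also called against NEMOIEC-KO, all with groups that do not overlap and a higher group of at least 1 FPKM, and per list the 2 largest called changes in each direction or, with none called, the 2 smallest p. Predicted genes and receptor segments were not named, and genes chosen after their values were seen are H2-Aa, H2-Ab1, H2-Eb1, H2-DMa, Ciita, Psmb9, Tap1, Hsd3b1, Cd1d2 and Ccl19. Alternatives changed the libraries, pseudocount, filter, scaling, prior and covariates one at a time. Promoter windows are RefSeq sequences (GRCm38.p6). List entries without a matching row were not analysed here, and 1 gene that the naming rule picks is not reported here.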

Additional observations from a re-analysis of the deposited data

Results flagged for a closer look

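For 67 genes of the text and 4 library measures, 142 groups of 5 libraries were examined for a highest or lowest library far from the other 4. This was so in 22 groups, where chance gives about 1 in 20 for independent values. The groups come from the same libraries and many of the genes vary together, so they are not independent. The count of 22 is a description, and no excess over that rate is claimed. Il12a-labelled replicate 1 was far above the other 4 for Wfdc18 (147.9 FPKM), Cd177 of the neutrophil list (250.1), the mast cell protease Mcpt1 (8.182), Ly6a (2285), Clca4b (907), Psmb9 (87.23) and Tap1 (66.34), and far below them for Hsd3b3 (0.1265). Nemofl/fl replicate 2 was far above the other 4 controls for the MHC class II genes H2-Aa (159.7), H2-Ab1 (119.5), H2-Eb1 (115.3), Cd74 (333.2) and Ciita (1.491), and for Stat4 (0.5512). Nemofl/fl replicate 1 was far above them for Esrrg (1.936) and far below for Rps3a1 (843), Fabp6 (5.365) and Pdk4 (2.425). Single values that stood apart in other libraries were Psmb9 in Nemofl/fl replicate 4 (10.27, lowest), Il23a (0.361) and Hsd3b1 (1.996) in Il12a-labelled replicate 3, both highest, and the summed FPKM of Il12a-labelled replicate 4 (665300, lowest).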

How the results depend on the processing

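The 149 higher and 110 lower genes became 658 and 343 in a fit of the 10 libraries alone, 75 and 61 with no filter on low values, 7 and 2 with the library code, 57 and 39 with sex, 300.0 and 241 with the smooth muscle level and 13 and 7 with the mitochondrial share as a covariate, and 210.0 and 205 after quantile normalization. In male libraries only, an alternative chosen after seeing the data, they were 233 and 225. Leaving out 1 library gave 47 to 115 higher and 29 to 129 lower genes. The share of higher genes among the calls was 57.5%, and 50.6% after quantile normalization. The cause of these shifts was not tested. The other scalings, pseudocounts, the stricter filter and the prior without a trend kept both counts within 1.5 times, and no named gene reversed its direction when called.

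No label says what the replicate numbers mark. Same-numbered libraries of the 2 groups correlated with r between -0.111 and 0.321 after centring (median 0.159, over 0.1 in 3 of 5 pairs), and libraries of different number with r between -0.318 and 0.133 (median 0.0032, 20 pairs). As a hint from the data, 6 of the 10 libraries correlated best with the library of their own number. Since not every same-numbered pair was over 0.1, the numbers were not used as pairs. With a replicate block 241 genes were higher and 233 lower, and 9 of 16 B cell markers were called.

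Depth per library is unknown, so how far counting error limits the low values, such as those of Il12a, cannot be given. With 5 libraries a group, no gene outside the calls is shown to be at the control level.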
